A study of Mus musculus with 12 samples.

Results

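The NADPH oxidase subunit genes Nox4, Cybb, Cyba, Ncf1, Ncf4, Rac2 and Noxo1 were followed by name in a table of read counts for 55487 mouse gene identifiers, and all 7 were present and passed the low count filter in every comparison. The counts came from bulk RNA-seq of kidney, labelled as cortex, in 12 libraries that fell into 4 groups of 3. Control mice (Ctrl) carried the floxed ALR allele (ALR flox/flox, gene symbol Gfer) without Cre and are labelled WT, and knockout mice (PT-KO) carried the same floxed alleles with a Ggt1-Cre transgene, whose promoter drives Cre in proximal tubule cells, and are labelled ALR knockdown. Mice of both genotypes were studied after sham treatment and after ischemia/reperfusion (Ctrl+I/R and PT-KO+I/R), which was 22 min of bilateral renal ischemia and 24 h of reperfusion in mice of 6 to 8 weeks on a mixed C57BL/6 background. The question was how the oxidase of the renal tubule, Nox4, and that of phagocytes, built on Cybb, behaved under injury in both genotypes.

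NADPH oxidases are membrane enzymes that pass electrons from NADPH to oxygen and so make superoxide or hydrogen peroxide. Nox4 is the main family member of the renal tubule; it needs only the small membrane partner p22phox, encoded by Cyba, and is regarded as constitutively active, so that its output follows its amount. Cybb encodes gp91phox (NOX2), the catalytic subunit of the phagocyte enzyme, which also sits on p22phox but stays silent until cytosolic proteins, among them p47phox (Ncf1), p40phox (Ncf4) and a Rac GTPase, mainly Rac2 in blood cells, join it. Noxo1 is the organizer protein of the epithelial oxidase NOX1 and takes the place that p47phox has in phagocytes.

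The start sites of the tubular and the phagocyte catalytic gene lie in unlike DNA. The 150 bases before the start are shown for the tubular enzyme, the phagocyte enzyme, their shared partner and the phagocyte organizer, because the results turn on these genes, and the interval between Gfer and Noxo1 is shown because the floxed gene and this subunit gene are head-to-head neighbours. The sequences are from the RefSeq promoter table (GRCm38.p6), are written 5′ to 3′ on the strand of the gene named first except where stated, and have each CpG in capitals. The table held windows for 5 of the 7 genes, without Ncf4 and Rac2.
Nox4, chr7:87246499-87246648, plus strand: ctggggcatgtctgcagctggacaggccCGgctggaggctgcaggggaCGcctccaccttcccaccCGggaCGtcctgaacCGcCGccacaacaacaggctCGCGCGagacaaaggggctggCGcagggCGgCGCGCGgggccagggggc
Cybb, chrX:9469325-9469474, minus strand: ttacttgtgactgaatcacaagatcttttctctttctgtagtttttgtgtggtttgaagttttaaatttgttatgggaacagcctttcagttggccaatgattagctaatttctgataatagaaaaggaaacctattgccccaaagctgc
Cyba, chr8:122432941-122433090, minus strand: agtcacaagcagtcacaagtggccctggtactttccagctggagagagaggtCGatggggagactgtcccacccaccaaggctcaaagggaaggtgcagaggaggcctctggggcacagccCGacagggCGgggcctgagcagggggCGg
Ncf1, chr5:134229626-134229775, minus strand: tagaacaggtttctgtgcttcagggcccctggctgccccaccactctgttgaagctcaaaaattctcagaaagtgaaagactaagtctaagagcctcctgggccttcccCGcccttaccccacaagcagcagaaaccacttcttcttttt
between Gfer and Noxo1, chr17:24696157-24696233, plus strand (that of Noxo1): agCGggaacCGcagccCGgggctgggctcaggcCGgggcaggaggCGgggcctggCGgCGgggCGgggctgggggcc

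The Nox4 window held 14 CpG and was 74.0% G and C, whereas the Cybb window held 0 CpG at 35.3% G and C. Over 32851 windows of the same length, counting CpG on either strand alike, the median was 4 CpG and 54% G and C, 82.1% of windows had fewer CpG than that of Nox4, and 14.3% had none. The Cyba window held 4 CpG and the Ncf1 window 1. The starts of Gfer, on the minus strand, and Noxo1, on the plus strand, were 77 bases apart, and these bases held 8 CpG. Ncf4 and Rac2 lie on the same chromosome, at chr15:78244801-78262580 on the plus strand and chr15:78559167-78572783 on the minus strand of GRCm38, with 296586 bases between them.

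Library totals ran from 12165089 to 23123693 counts. Gfer, the targeted gene, was not lower in the libraries labelled ALR knockdown: it stood at 12.7, 11.3 and 14.5 CPM (read counts per TMM-scaled library size) in Ctrl and at 10.01, 17.1 and 15.1 in PT-KO, and at 15.3, 20.0 and 17.7 in Ctrl+I/R and 21.3, 22.7 and 21.4 in PT-KO+I/R. These are counts over the whole gene in the whole tissue, of which the floxed stretch and the Cre-expressing cells are a part, so they do not check the genotype, and every direction given below for PT-KO rests on the labels. The groups also differed in the female transcript Xist, which had 22402 and 19755 counts in Ctrl libraries 1 and 2 and at most 11 in each of the other 10 libraries. Every comparison with Ctrl therefore sets a group with 2 such libraries against a group with none. Of 12 proximal tubule markers, all were tested and their summed level was 18300 to 20290 CPM in Ctrl, but the inner medulla markers Slc14a2, Aqp4 and Fxyd4 were present as well, at a sum of 76.1 to 113 CPM in Ctrl, 42.3 to 137 in PT-KO, 88.4 to 98.2 in Ctrl+I/R and 38.8 to 54.7 in PT-KO+I/R.

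Nox4 and its partner Cyba were abundant transcripts in the uninjured kidney, and the phagocyte subunits were scarce. Per kilobase of exon, Cyba stood at 197 ± 34.1 CPM and Nox4 at 134 ± 32.4 CPM in Ctrl (SD, n = 3), the ranks 163 and 273 among the 29087 genes with a count in any library and a known exon length. Cybb followed at 1.61 ± 0.103 CPM per kb, Rac2 at 0.883 ± 0.240, Noxo1 at 0.684 ± 0.00296, Ncf4 at 0.512 ± 0.0541 and Ncf1 at 0.392 ± 0.0871. Of the neighbours in this order, Ncf4 (0.469 to 0.573) and Ncf1 (0.334 to 0.492) overlapped and the others did not, but the means of Rac2 (0.718 to 1.16) and Noxo1 (0.681 to 0.687) differed by less than the SD of Rac2. When the longest transcript was used as the length in place of all exons, Nox4 stood at 288.5 CPM per kb and Cyba at 275, and Noxo1 at 0.921 and Rac2 at 0.902, so that the order within both pairs turned with the gene model.

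The order of the scarce subunits differed between groups. In Ctrl+I/R, Rac2 stood at 2.91 ± 0.999 CPM per kb, Cybb at 2.15 ± 0.680, Ncf1 at 1.45 ± 0.650, Ncf4 at 1.17 ± 0.371 and Noxo1 at 0.596 ± 0.193, and each neighbour overlapped the next. In PT-KO+I/R the order was Ncf4 at 0.604 ± 0.164, Rac2 at 0.592 ± 0.126 and Ncf1 at 0.572 ± 0.202, which overlapped, then Noxo1 at 0.293 ± 0.0268 and last Cybb at 0.197 ± 0.0587. Cyba and Nox4 stayed first and second in all 4 groups, at 155 ± 14.2 and 17.3 ± 3.07 CPM per kb in PT-KO+I/R.

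**Figure D1:**
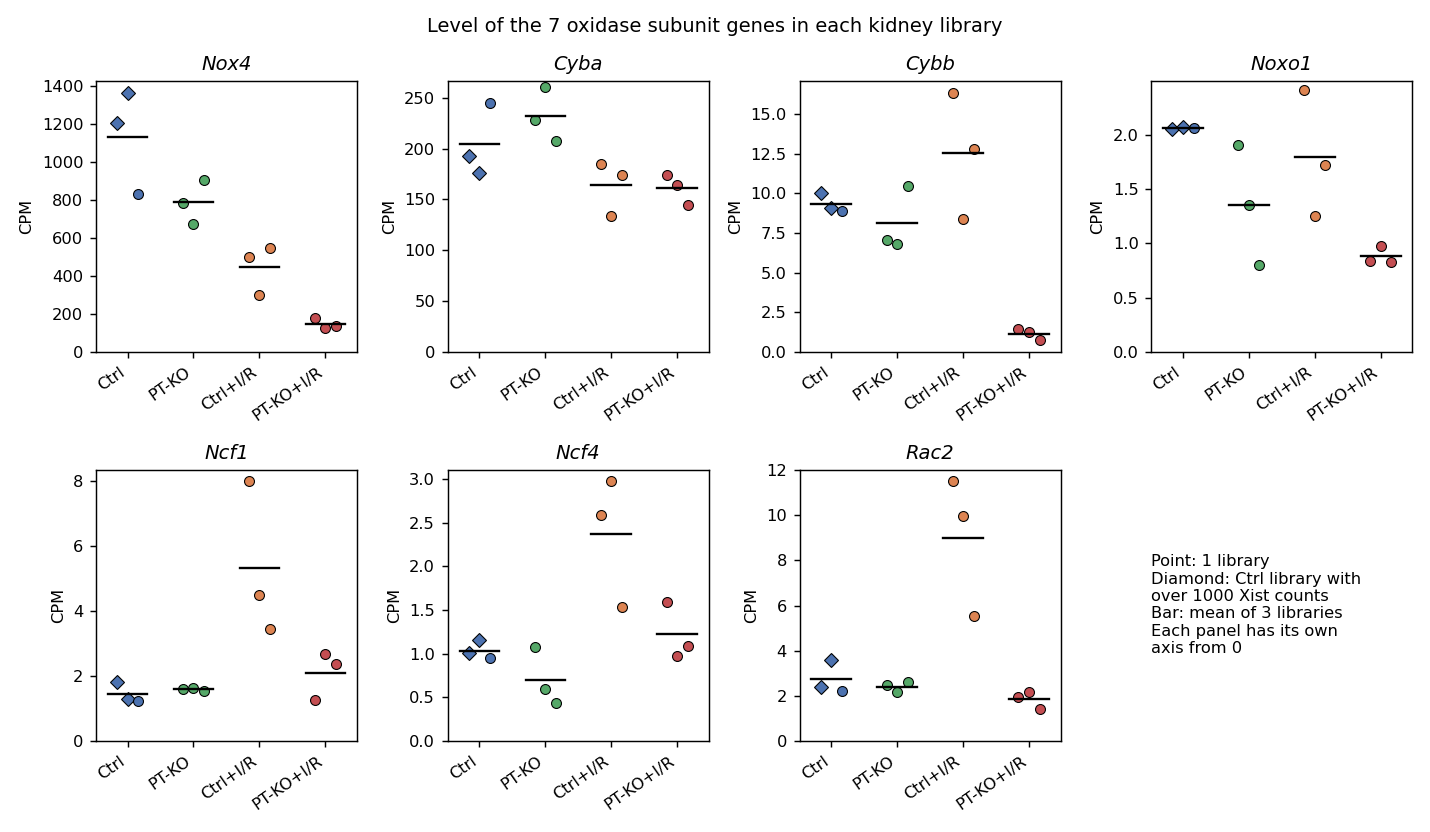
Level of the 7 oxidase subunit genes in CPM on a linear axis from 0, with 1 panel per gene, 1 point per library, diamonds for the 2 Ctrl libraries with over 1000 Xist counts and a bar for the mean of 3 libraries. Nox4 is lowest in PT-KO+I/R (129 to 177 CPM), Cybb falls to at most 1.43 CPM in PT-KO+I/R only, and Ncf1, Ncf4 and Rac2 are highest in Ctrl+I/R.

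After I/R in control mice, 4 of the 7 subunit genes changed: Nox4 was lower, and Ncf1, Ncf4 and Rac2 were higher. In this comparison edgeR called 19.4% of the 15567 genes tested, 11.4% higher and 7.97% lower, and the median log2 fold change was 0.43 over the 7 genes and -0.01 over all tested. When the injured knockouts were set against the injured controls, 5 of the 7 were lower and 0 higher, where 46.9% of 15281 genes were called, 24.4% lower and 22.5% higher, with a median of -1.31 for the 7 genes and -0.0049 for all. The called genes were Nox4, Cybb, Ncf1, Rac2 and Noxo1.

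Between PT-KO and Ctrl without injury, 0 of the 7 subunit genes and 0 of 15291 genes (0%) were called by edgeR, while 1 of the 7, Nox4, and 2573 genes had an unadjusted p under 0.05 and DESeq2 called 444 genes. Between PT-KO+I/R and PT-KO, 3 of the 7 genes were lower, Nox4, Cybb and Cyba, where 65.5% of 15155 genes were called, 32.7% lower and 32.9% higher. The knockout by I/R interaction, fitted to all 12 libraries, was negative and called for 4 of the 7, Nox4, Cybb, Ncf1 and Rac2, against 30.6% of 16168 genes called and 16.4% called negative. The shares of subunit genes called are to be read beside these backgrounds, which were high in every comparison of injured knockout kidneys. Groups without overlap were seen in Ctrl+I/R against Ctrl for 3 subunit genes that were higher and 1 that was lower (21.8% and 21.8% of all genes tested), for 5 lower in the injured knockouts against the injured controls (30.1% lower and 28.6% higher over all genes), for 1 lower in PT-KO against Ctrl (10.9% and 10.1%) and for 3 lower with injury in the knockouts (35.9% and 34.8%). The p-values measure the spread between samples, since the labels name 3 samples per group and do not say how many animals stand behind each.

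**Figure D2:**
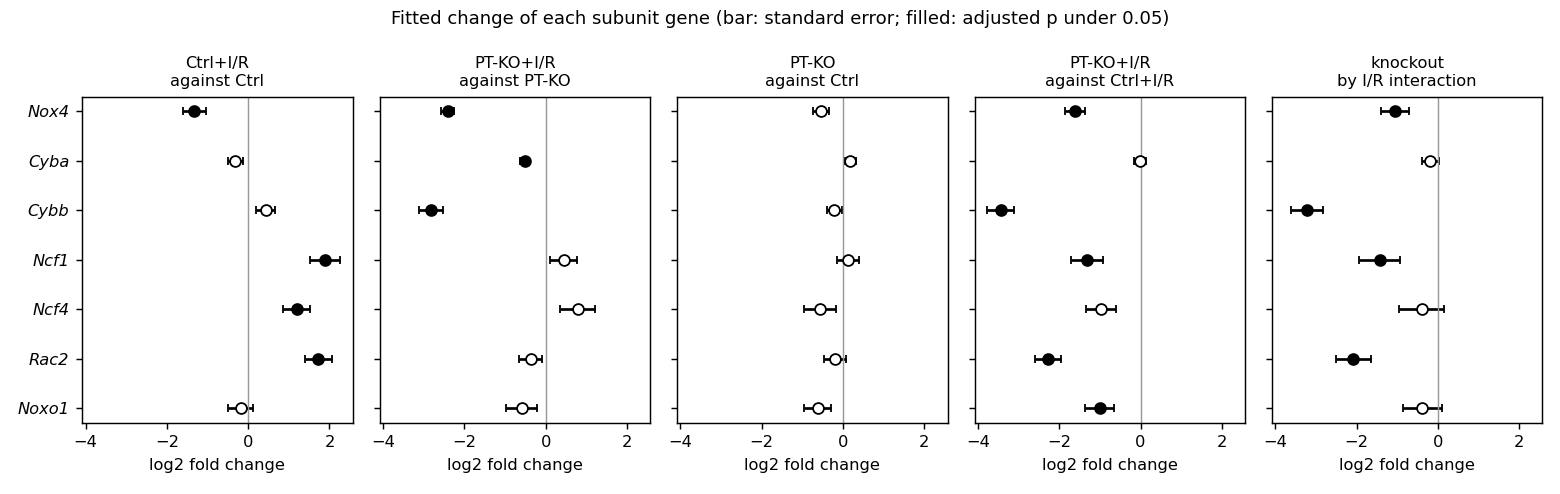
Fitted log2 fold change of each subunit gene in the 4 comparisons and the interaction, with bars of 1 standard error and filled points for genes with an edgeR adjusted p under 0.05. Cybb is the gene farthest below 0 in the injured knockouts against the injured controls and in the interaction, Nox4 is below 0 in all 5 panels, and Ncf1, Ncf4 and Rac2 are above 0 only in some.

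Nox4, the catalytic subunit of the tubular oxidase, fell with injury in both genotypes. It stood at 1204, 1362 and 828 CPM in Ctrl and at 499.8, 299 and 548 CPM in Ctrl+I/R. Every injured control library was below every uninjured one, and the lowest Ctrl library was the one without Xist counts. The level fell 2.52-fold (log2 fold change -1.33, SE 0.28, edgeR adjusted p = 0.0233). The call was lost without Ctrl library 1 (-1.28, edgeR adjusted p = 0.0834), without Ctrl library 2 (-1.16, 0.0861) and without Ctrl+I/R library 1 (-1.42, 0.0658). In a fit to all 12 libraries with an Xist covariate the value was -0.88 (edgeR adjusted p = 0.0619), and without the 2 Ctrl libraries with Xist counts it was -0.90 (0.0848).

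In the mice labelled knockout, where no library had Xist counts beyond 11, Nox4 stood at 783, 675 and 903 CPM without injury and at 177, 129 and 135 CPM after it. The 2 groups were far apart, and the fall was 5.32-fold (log2 fold change -2.41, SE 0.15, edgeR adjusted p = 7.02e-07). It was called with each library left out in turn. The injured knockout kidneys were also below the injured control kidneys without overlap, 3.04-fold (-1.60, SE 0.24, edgeR adjusted p = 0.00168), again with each library left out. With a block for the replicate number this difference did not pass. In bulk tissue, fewer cells of a type and less RNA per cell cannot be told apart.

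Without injury, Nox4 in PT-KO overlapped Ctrl (log2 fold change -0.53, SE 0.20, edgeR adjusted p = 0.253). The 2 Ctrl libraries with Xist counts lay above all 3 PT-KO libraries and the third lay among them, so without Ctrl library 3 the value was -0.72 (edgeR adjusted p = 0.00888), and without the 2 libraries with Xist counts it was -0.09 (1). The interaction was -1.06 (SE 0.34, edgeR adjusted p = 0.0325), a steeper fall with injury in the knockout mice than in the controls, and without the 2 libraries with Xist counts it was -1.53 (0.0303). That call was lost on dropping any 1 of 8 of the 12 libraries, with values from -1.11 to -0.88 in these 8 fits and the weakest without Ctrl library 3; the libraries concerned were Ctrl 1 and 3, Ctrl+I/R 1 and 4, PT-KO 1 and 4, and PT-KO+I/R 3 and 4.

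The fall of Nox4 ran beside that of the proximal tubule markers and of the loop, distal and collecting duct markers. The summed level of the proximal tubule markers was 18300 to 20290 CPM in Ctrl, 19000 to 21950 in PT-KO, 6885 to 13130 in Ctrl+I/R and 5639 to 6346 in PT-KO+I/R, and edgeR called 12 of 12 lower in PT-KO+I/R against PT-KO, 6 of 12 lower in the injured knockouts against the injured controls and 4 of 12 lower in Ctrl+I/R against Ctrl. The 8 loop, distal and collecting duct markers summed to 6033 to 7894 CPM in Ctrl, 5822 to 6784 in PT-KO, 1728 to 4423 in Ctrl+I/R and 2287 to 2743 in PT-KO+I/R, and 7, 3 and 3 of 8 were called lower in the same 3 comparisons. Of the 3 inner medulla markers, Aqp4 and Slc14a2 were lower in the injured knockouts than in the injured controls. The part of these lists in the Nox4 result was not tested. As a share of the proximal tubule sum Nox4 was 4.08 to 7.44% in Ctrl, 4.18 to 5.01% in Ctrl+I/R, 3.08 to 4.66% in PT-KO and 2.28 to 2.78% in PT-KO+I/R. This share was lower in the 3 injured knockout libraries than in all others, but single markers differed: in PT-KO+I/R against PT-KO the median log2 fold change of the 12 was -2.20, and 6 of them had a lower value than Nox4 (-2.41), from Slc34a1 at -2.45 to Slc5a12 at -4.03.

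Cyba, which encodes the p22phox subunit that NOX2 and NOX4 share, was called in 1 of the 5 comparisons, PT-KO+I/R against PT-KO. It stood at 193, 176 and 244 CPM in Ctrl, and at 185, 134 and 174 after injury (Ctrl+I/R). The knockout libraries stood at 229, 260 and 207 CPM without injury (PT-KO) and at 174, 164 and 145 with it (PT-KO+I/R). The injured knockout kidneys lay within the range of the injured controls, with a log2 fold change of -0.02 (SE 0.15, edgeR adjusted p = 0.934). Against uninjured knockout kidneys the 3 values were lower without overlap and Cyba fell 1.43-fold (-0.51, SE 0.11, edgeR adjusted p = 0.00201). In Ctrl+I/R against Ctrl it was -0.31 (SE 0.18, edgeR adjusted p = 0.233) and in PT-KO against Ctrl 0.17 (SE 0.14, 0.541).

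The ratio of Nox4 to Cyba was lowest in the injured knockout kidneys. Nox4 counts were 3.39 to 7.72 times those of Cyba in Ctrl, 2.60 to 4.36 times in PT-KO and 2.24 to 3.16 times in Ctrl+I/R. In PT-KO+I/R the 2 genes had nearly equal CPM, with ratios of 0.784 to 1.02. These are ratios of CPM that are not scaled by gene length, so they compare groups and not the 2 genes.

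Cybb, the catalytic subunit of the phagocyte oxidase, was low in the injured knockout kidneys and in no other group. It stood at 10.01, 9.07 and 8.91 CPM in Ctrl, and at 16.3, 8.42 and 12.8 after injury (Ctrl+I/R). The knockout libraries stood at 7.03, 6.79 and 10.5 CPM without injury (PT-KO) and at 1.43, 1.24 and 0.767 with it (PT-KO+I/R). The last 3 values rest on 17, 28 and 12 counts and lie below every other library. Against Ctrl+I/R the level fell 10.9-fold (log2 fold change -3.44, SE 0.34, edgeR adjusted p = 0.000355). Of all genes tested, 1.31% had a lower log2 fold change.

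Against PT-KO, Cybb fell 7.02-fold (log2 fold change -2.81, SE 0.29, edgeR adjusted p = 1.89e-05). The interaction was -3.22 (SE 0.39, edgeR adjusted p = 0.000203), or -3.30 (0.00521) without the 2 Ctrl libraries with Xist counts. These 3 calls were made with each library left out in turn, with values of -3.67 to -3.20, -2.95 to -2.58 and -3.45 to -2.98. In control mice the change with injury was 0.43 (SE 0.24, edgeR adjusted p = 0.235) and the groups overlapped, Ctrl+I/R library 2 being below all 3 Ctrl libraries. Without injury the change with knockout was -0.21 (SE 0.19, edgeR adjusted p = 0.582).

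Ncf1, which encodes the organizer p47phox, rose with injury in control mice. It stood at 1.80, 1.28 and 1.23 CPM in Ctrl and at 7.99, 4.50 and 3.45 in Ctrl+I/R, with no overlap, a 3.71-fold rise (log2 fold change 1.89, SE 0.38, edgeR adjusted p = 0.0202). The call was lost without Ctrl library 1 (2.10, edgeR adjusted p = 0.0627), Ctrl library 2 (1.83, 0.078) or Ctrl+I/R library 1 (1.45, 0.0529), and without both Ctrl libraries with Xist counts it was 2.10 (0.0532). In the knockout mice it stood at 1.58, 1.62 and 1.54 CPM without injury and at 1.26, 2.66 and 2.37 after it, which overlapped (0.44, SE 0.33, edgeR adjusted p = 0.255).

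The injured knockout kidneys were lower in Ncf1 than the injured controls, 2.48-fold (log2 fold change -1.31, SE 0.40, edgeR adjusted p = 0.0272), but this did not hold without Ctrl+I/R library 1 (-0.89, 0.0985) and without PT-KO+I/R library 2 (-1.07, 0.0723), 3 (-1.51, 0.0511) or 4 (-1.38, 0.0723). The interaction was -1.43 (SE 0.51, edgeR adjusted p = 0.0492) and was likewise lost on dropping any 1 of 8 libraries, with values of -1.51 to -1.01 in these 8 fits, and also with an Xist covariate (-1.67, 0.0951) and without the 2 Ctrl libraries with Xist counts (-1.68, 0.117); calls remained without Ctrl library 1, Ctrl+I/R libraries 2 or 4, or PT-KO+I/R library 3. Of the exon bases of Ncf1, 11.1% overlap Gtf2ird2 on the other strand, a gene at 1387 counts in all 12 libraries, and the strand setting of the counting is not given in the sources used here.

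Ncf4, which encodes p40phox, had the fewest counts among the phagocyte subunits in uninjured kidneys, 7 to 20 per library. It stood at 1.001, 1.16 and 0.947 CPM in Ctrl and rose to 2.59, 2.98 and 1.53 in Ctrl+I/R, 2.30-fold and without overlap (log2 fold change 1.20, SE 0.33, edgeR adjusted p = 0.0453). The call was lost without any 1 of the 3 Ctrl libraries (1.15 to 1.30, edgeR adjusted p of 0.0891 to 0.131) and without Ctrl+I/R library 1 (1.12, 0.123) or 2 (1.02, 0.132), and it was 1.33 (0.149) with an Xist covariate and 1.31 (0.203) without both Ctrl libraries with Xist counts. In PT-KO it was 1.08, 0.593 and 0.432 CPM and in PT-KO+I/R 1.60, 0.975 and 1.09, and neither comparison of PT-KO+I/R passed the test (-0.97 against Ctrl+I/R, SE 0.36, edgeR adjusted p = 0.0575; 0.79 against PT-KO, SE 0.43, 0.13). The first of these became a call without Ctrl+I/R library 4 (-1.21, 0.0288) or PT-KO+I/R library 2 (-1.19, 0.0489), with total counts as the scale (-1.18, 0.0312), with at least 10 counts in every library (-1.01, 0.0376) and in 1 fit to all 12 libraries (-0.97, 0.0452).

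Rac2, the Rac GTPase of blood cells, rose with injury in control mice and was not called with injury in knockout mice. It stood at 2.40, 3.59 and 2.23 CPM in Ctrl and at 11.5, 9.98 and 5.55 in Ctrl+I/R, 3.31-fold higher without overlap (log2 fold change 1.73, SE 0.33, edgeR adjusted p = 0.0182). The rise was not called without Ctrl library 1 (1.65, edgeR adjusted p = 0.0744) or Ctrl+I/R library 1 (1.498, 0.06), and was called without both Ctrl libraries with Xist counts (2.00, 0.0318). The knockout kidneys stood at 2.47, 2.16 and 2.59 CPM without injury and at 1.93, 2.17 and 1.41 with it.

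Injured knockout kidneys were thus 4.85-fold below injured controls in Rac2 (log2 fold change -2.28, SE 0.32, edgeR adjusted p = 0.0013). Against uninjured knockout kidneys the difference did not pass (-0.37, SE 0.28, edgeR adjusted p = 0.267). The interaction was -2.08 (SE 0.43, edgeR adjusted p = 0.00393), and -2.39 (0.0172) without the Ctrl libraries with Xist counts. The comparison with Ctrl+I/R and the interaction were called with each library left out, with values of -2.53 to -2.07 and -2.34 to -1.86.

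Noxo1, the organizer of the epithelial oxidase NOX1, stood at 2.05, 2.07 and 2.06 CPM in Ctrl, and at 2.41, 1.25 and 1.72 after injury (Ctrl+I/R). The knockout libraries stood at 1.90, 1.35 and 0.802 CPM without injury (PT-KO) and at 0.840, 0.975 and 0.831 with it (PT-KO+I/R). The 3 Ctrl libraries lay closer together than the error of 34 to 41 counts, since counting alone gives a coefficient of variation of 16.4% and the measured one was 0.438%. The injured knockout kidneys lay below the injured controls, 2.01-fold (log2 fold change -1.01, SE 0.35, edgeR adjusted p = 0.0472). The call held only without Ctrl+I/R library 2 (-1.22) and was lost without any of the other 5 libraries (-1.08 to -0.73, edgeR adjusted p of 0.0832 to 0.179, the weakest without Ctrl+I/R library 1), with DESeq2 (0.0755) and with no low count filter (0.0892).

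In PT-KO against Ctrl the Noxo1 groups did not overlap, but the value of -0.62 (SE 0.33, edgeR adjusted p = 0.37) did not pass. Noxo1 shares 70.4% of its exon bases with Tbl3 on the other strand, and without a known strand setting their reads cannot be told apart. Tbl3 rose in the injured knockouts over the injured controls (log2 fold change 0.54, SE 0.11, edgeR adjusted p = 0.00646), the opposite direction to Noxo1, though not with total counts as the scale (0.33, 0.0639). The catalytic and activator genes of the NOX1 enzyme had few counts: Nox1 had 0 or 1 counts in 9 libraries and 17, 3 and 3 in PT-KO+I/R, and Noxa1 had at most 1 count in each of the 12.

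The phagocyte genes did not move as 1 block, and the ratio of Cybb to its partners shifted by group. Cybb had 5.56 to 7.27 times the CPM of Ncf1 in Ctrl, 4.20 to 6.80 times in PT-KO, 1.87 to 3.72 times in Ctrl+I/R and 0.324 to 1.13 times in PT-KO+I/R. To Rac2 the ratio was 2.53 to 4.17, 2.85 to 4.05, 0.843 to 2.31 and 0.546 to 0.739 in the same order. In both cases the injured knockout kidneys lay below all other libraries.

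The ratio of Nox4 to Cybb behaved otherwise. Nox4 had 93.0 to 150.1 times the CPM of Cybb in Ctrl, 86.1 to 111 times in PT-KO and 104 to 176 times in PT-KO+I/R, and 30.7 to 42.8 times in Ctrl+I/R. The injured control kidneys were alone at the low end, and the injured knockout kidneys, in which both genes had fallen, overlapped the uninjured ones. These ratios are given without a test.

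**Figure D3:**
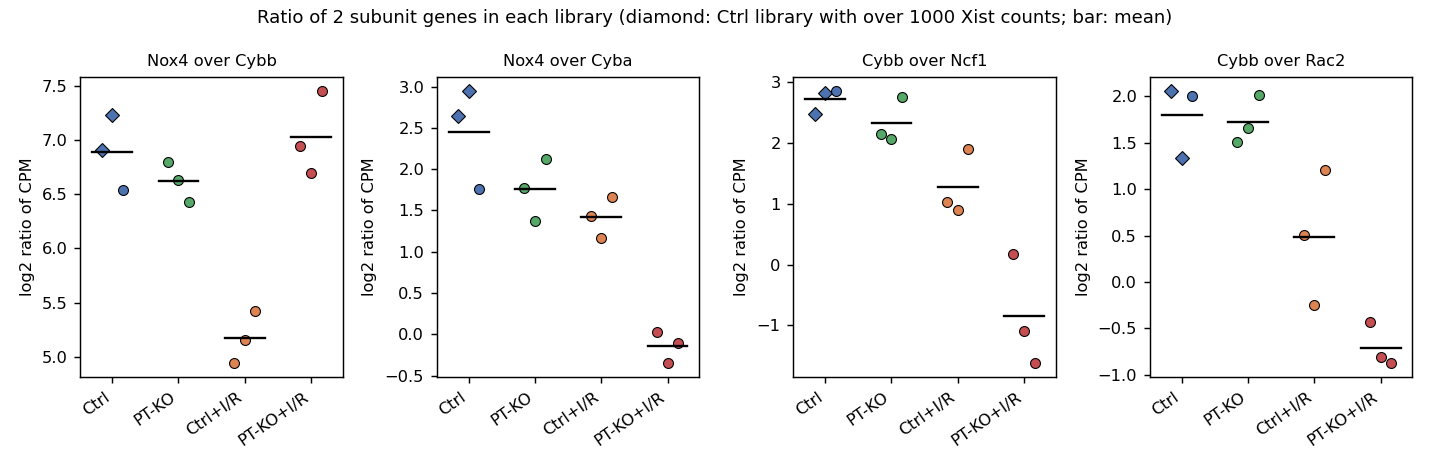
Log2 ratio of the CPM of 2 subunit genes in each library, by group, with diamonds for the 2 Ctrl libraries with over 1000 Xist counts and bars for the mean of 3. Nox4 over Cybb is lowest in Ctrl+I/R (4.94 to 5.42), whereas Nox4 over Cyba, Cybb over Ncf1 and Cybb over Rac2 are lowest in PT-KO+I/R.

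General leukocyte transcripts were higher in injured control kidneys, as were Ncf1, Ncf4 and Rac2, whereas Cybb was not called there. The summed level of 8 general leukocyte genes (Ptprc, Laptm5, Coro1a, Itgb2, Cd53, Tyrobp, Fcer1g and Spi1) was 38.4 to 43.6 CPM in Ctrl, 80.3 to 168 in Ctrl+I/R, 38 to 47.3 in PT-KO and 35.6 to 39.6 in PT-KO+I/R. Of these, 8 of 8 were higher in Ctrl+I/R than in Ctrl, and 7 of 8 were lower in injured knockout than in injured control kidneys. In PT-KO+I/R against PT-KO, where Cybb fell, 1 of the 8 was higher and 1 lower, with a median log2 fold change of 0.01, whereas 6 of 10 macrophage genes were lower and 1 higher, with a median of -0.70, and 3 of the 4 dendritic cell genes tested were lower. Cybb was 21.2 to 23.2% of this sum in Ctrl, 16.5 to 22.2% in PT-KO, 7.02 to 15.98% in Ctrl+I/R and 1.94 to 4.01% in PT-KO+I/R, whereas Ncf1 was 2.98 to 4.13%, 3.26 to 4.26%, 3.75 to 4.75% and 3.54 to 7.18%. As a share of the sum of 10 macrophage genes, Cybb was 5.20 to 5.79% in Ctrl, 3.98 to 5.99% in PT-KO, 6.12 to 7.49% in Ctrl+I/R and 0.723 to 1.28% in PT-KO+I/R, so that in injured controls its share was lower than in Ctrl by the first sum and higher by the second. Of the macrophage sum in Ctrl library 1, 192.7 CPM, Mertk was 80.9 and Csf1r 60.1. In Ctrl+I/R against Ctrl, 6 of the 10 macrophage genes were higher and 1, Mertk, was lower. In the injured knockouts against the injured controls, Adgre1 (-4.37), Cx3cr1 (-5.765) and Fcgr1 (-3.71) had lower log2 fold changes than Cybb (-3.44). The other macrophage genes had higher ones, up to 0.76 for Cd68. The part of leukocytes in the subunit results was not tested.

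The leukocyte classes went apart in the injured knockout kidneys. Of 10 macrophage genes, 7 were lower than in Ctrl+I/R and 1, Cd68, was higher, and their sum was 106 to 117 CPM against 138 to 218 in Ctrl+I/R, 164 to 175 in PT-KO and 154 to 193 in Ctrl. Against PT-KO, 6 of the 10 were lower, 3 were not called and 1, Cd68, was higher (log2 fold change 3.85, edgeR adjusted p = 5.32e-07). Among the lower ones, Adgre1 had a log2 fold change of -3.14 (edgeR adjusted p = 3.81e-05), Cx3cr1 of -4.08 (0.000132) and Csf1r of -1.97 (2.93e-07). Those not called were C1qa (-0.28, 0.246), Mrc1 (-0.07, 0.771) and Fcgr1 (-1.32, 0.0579). The genes Adgre1 (F4/80), Cx3cr1 and Fcgr1 were at most 0.576 CPM in each PT-KO+I/R library. The sum of 5 monocyte genes was 32.9 to 38.3 CPM in PT-KO+I/R, 44.7 to 115 in Ctrl+I/R, 20.0 to 26.9 in Ctrl and 19.5 to 26.0 in PT-KO. Of these genes, 3 of 5 (Ly6c2, Ccr2 and Plac8) were lower in the injured knockouts than in the injured controls, and against PT-KO Chil3 and Plac8 were higher and Ccr2 lower. Neutrophil genes were instead abundant: the sum of 11 was 56.6 to 90.7 CPM in PT-KO+I/R, 10.7 to 43.4 in Ctrl+I/R and at most 3.10 in the uninjured groups, and 5 of the 7 tested rose over injured controls, among them S100a9 (log2 fold change 1.67, edgeR adjusted p = 0.013). Of the defining neutrophil genes, Ly6g was at most 0.252 CPM and Camp and Elane at most 0.0523 in any library. As a share of the neutrophil sum, Ncf1 was 10.35 to 32.8% in Ctrl+I/R and 2.23 to 3.43% in PT-KO+I/R. Cybb was 19.4 to 119.6% and 0.846 to 2.52% of it in these groups. In the uninjured groups the sum was too low for such a share to be read. Dendritic cell genes summed to 8.16 to 9.91 CPM in PT-KO+I/R and 13.4 to 22.0 in Ctrl+I/R, and 8 lymphocyte genes to 0.168 to 0.703 and 1.28 to 7.79 CPM. Most of the dendritic sum in PT-KO+I/R was Zbtb46, at 6.22, 7.36 and 9.08 CPM. It did not differ from Ctrl+I/R (log2 fold change -0.10, edgeR adjusted p = 0.689). Xcr1, Flt3, Clec9a and Cd209a were at most 0.252 CPM in PT-KO+I/R and at most 1.16 in Ctrl+I/R.

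**Figure D4:**
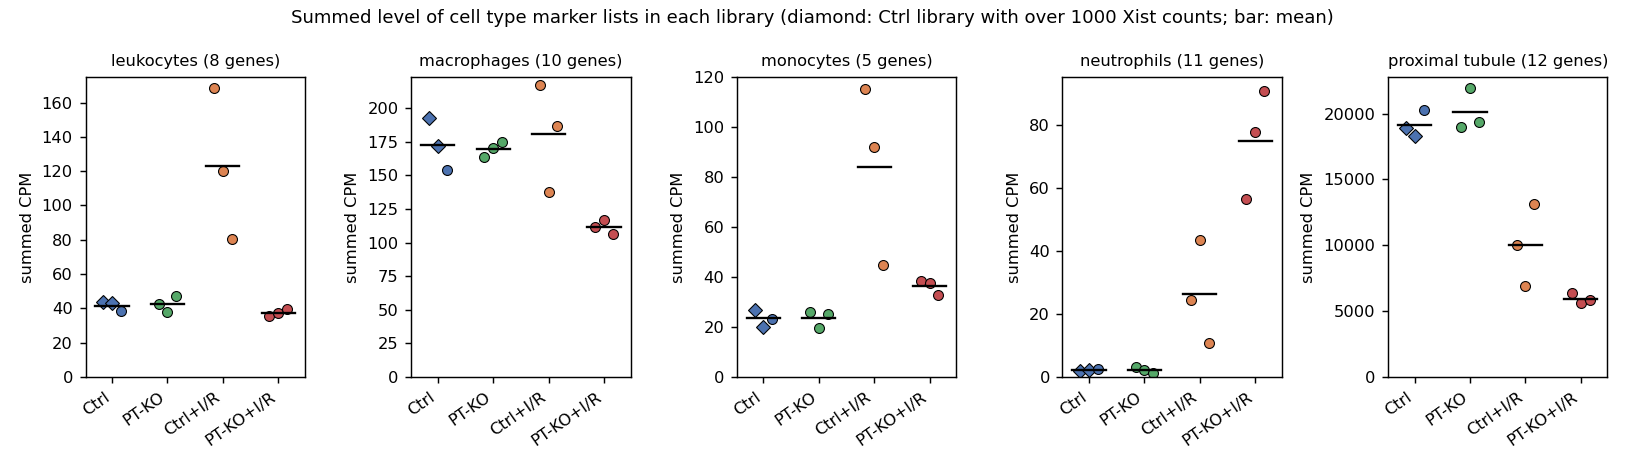
Summed CPM of 5 marker lists in each library on linear axes from 0, by group, with diamonds for the 2 Ctrl libraries with over 1000 Xist counts and bars for the mean of 3. General leukocyte and monocyte genes peak in Ctrl+I/R, macrophage genes are lowest and neutrophil genes highest in PT-KO+I/R, and proximal tubule genes are lower in both injured groups.

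Of 15 further oxidase genes, 8 had enough counts to be tested. In Ctrl+I/R against Ctrl, 0 were higher and 1, Poldip2, was lower, and in the injured knockouts against the injured controls 1, Rac1, was higher and 0 lower. In PT-KO against Ctrl 0 of 8 were called, and in PT-KO+I/R against PT-KO 4 were higher and 2 lower, where 32.9% and 32.7% of all genes were called in these directions. Over all genes, 7.97% were lower in the first of these comparisons and 22.5% higher in the second. The interaction was called for 1, Rac1, against 14.3% of all genes called positive. The median log2 fold change of the 8 in the injured knockouts against the injured controls was 0.07.

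Rac1, the ubiquitous Rac GTPase, moved opposite to Rac2 in injured knockout kidneys. It stood at 170, 168 and 195 CPM in Ctrl, and at 204, 219 and 182 after injury (Ctrl+I/R). The knockout libraries stood at 193, 196 and 193 CPM without injury (PT-KO) and at 404, 384 and 439 with it (PT-KO+I/R), where each library was well above the rest. It was 2.04-fold higher than in Ctrl+I/R (log2 fold change 1.03, SE 0.12, edgeR adjusted p = 0.000594), 2.13-fold higher than in PT-KO (1.09, SE 0.09, 3.32e-06), and had an interaction of 0.92 (SE 0.14, edgeR adjusted p = 0.000883). These 3 calls were made with each library left out. Of its exon bases 51.4% overlap Daglb on the other strand, which had a log2 fold change of 0.13 in the injured knockouts against the injured controls (edgeR adjusted p = 0.711).

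Poldip2, a partner that raises NOX4 activity, fell by 0.38 on the log2 scale in Ctrl+I/R (SE 0.11, edgeR adjusted p = 0.0476), a call lost without any 1 library but Ctrl+I/R library 4, with total counts (-0.27, 0.108), with no low count filter (-0.37, 0.087) and without the Xist libraries (-0.47, 0.0596), and by 0.40 in PT-KO+I/R against PT-KO (SE 0.08, 0.00184). Also against PT-KO, injured knockout kidneys were higher in Cybc1, the chaperone of the phagocyte cytochrome (0.42, SE 0.15, edgeR adjusted p = 0.0266, lost without PT-KO library 1 or PT-KO+I/R library 3 or 4), in the GTPase gene Rap1a (0.29, SE 0.08, 0.00991) and in Sh3pxd2b, an organizer of invadopodia (1.22, SE 0.18, 0.000191). Hvcn1, the proton channel that balances charge for the phagocyte oxidase, stood at 4.81, 5.61 and 4.57 CPM in PT-KO and 3.45, 1.42 and 2.30 in PT-KO+I/R and was 2.13-fold lower (-1.09, SE 0.31, edgeR adjusted p = 0.0104), although 44.2% of its exon bases overlap Tctn1 on the other strand. The thyroid-type oxidases were scarce: Duox1 had 6 to 11 counts in Ctrl, 0 to 7 in Ctrl+I/R, 2 to 9 in PT-KO and 0 in all 3 PT-KO+I/R libraries, Duox2 had at most 3 in any library, and Nox3 had 0 in all.

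The genes whose pattern over the 12 libraries was most like that of a subunit differed between the 2 systems. By Pearson's r of log2 CPM over 12366 other genes, the nearest to Nox4 were Zfp467 (0.997), Bbs2, Guf1 and Bace1 (each 0.991) and Vwa2 (0.990). The nearest to Cybb were Myct1 (0.988), Kcnab2 and Frem1 (each 0.983), Adgre1 (0.982), which encodes the macrophage antigen F4/80, and Haspin (0.974). Cyba was nearest to Ndufa13 (0.976) and Ndufv3 (0.971), subunits of respiratory complex I, and to Scp2-ps2 (0.967).

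Ncf1 was nearest to Laptm5 (0.942), Nfam1 (0.936) and Ctss (0.922), and among the nearest to Rac2 were Coro1a and Cfi (each 0.959). Laptm5 and Coro1a are in the leukocyte list above. Ncf4 was instead nearest to Loxl2 (0.937), the muscle filament gene Des (0.935) and Fbn1 (0.929), and Noxo1 to Nkap (0.885), Spns1 (0.884) and Ccl27a (0.881). Among the 7 genes themselves, r was 0.830 for Nox4 with Cybb, 0.794 for Ncf1 with Rac2, 0.725 for Ncf4 with Rac2 and 0.215 for Cybb with Ncf1. These values describe 12 libraries that fall into 4 groups and share the group differences given above.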

How the data were processed

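The table deposited by the authors holds whole-number read counts per Ensembl gene, neither normalized nor filtered, for 12 libraries of mouse kidney. Per the labels, reads were sequenced on an Illumina HiSeq after TRIzol extraction, and the submitters' processing notes name HISAT2 2.0.4 and mm10; the counting program, the annotation and the strand setting are not given in the sources used here. Of the identifiers, 55141 have a symbol, and 0 columns were left unused. The third Ctrl column takes only its group from its name, since control titles are numbered differently, and it shared no block number.

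Each comparison was fitted in edgeR 4.0.16 (R 4.3.3) to its own 6 libraries, after filterByExpr and TMM scaling, and the interaction to all 12, with quasi-likelihood tests. Adjustment was by Benjamini-Hochberg over all genes tested, at 0.05. CPM used TMM library sizes, and levels per kb the union of GENCODE exons. Likeness used log2 CPM with a prior count of 1 over genes averaging 50 counts or more. Exact permutation was not used, as its smallest p for 3 against 3 is 0.1. The method was tested on simulated counts.

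The named genes were all 7 subunits in every comparison, the further oxidase genes that passed the filter (with values for Duox1, Duox2, Rac1, Hvcn1 and those called), the 5 genes nearest to Nox4 and to Cybb and the 3 nearest to each other subunit; Nox1, Noxa1, Nox3 and Tbl3 are named besides and were chosen after their values were seen. A gene of the oxidase list and one of the nearest genes are not reported here. The subunits, gene lists and comparisons were chosen with earlier results of these data known. Alternatives were relative log expression and total count scaling, DESeq2 1.42.0, no filter, a minimum of 10 counts per library, a joint fit of all libraries, a replicate block, an Xist covariate, leaving out the libraries with over 1000 Xist counts, leaving out each library in turn, and the longest transcript as length.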

Additional observations from a re-analysis of the deposited data

Results flagged for a closer look

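The knockout by I/R interaction is the difference between the injury response of knockout and of control mice, fitted to all 12 libraries. It passed the test of edgeR for 4 of the 7 subunit genes and 1 of the 8 further oxidase genes tested. Over all 16168 genes, 30.6% were called, 14.3% positive and 16.4% negative. On the log2 scale the interaction was -3.22 for Cybb (edgeR adjusted p = 0.000203), -2.08 for Rac2 (0.00393), -1.43 for Ncf1 (0.0492), -1.06 for Nox4 (0.0325) and 0.92 for Rac1 (0.000883). Cybb, Rac2 and Rac1 were called in all 12 fits that left out 1 library, and Ncf1 and Nox4 were lost in 8 of them. Groups of 3 libraries were too small for a test of single outlying libraries.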

How the results depend on the processing

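Cybb and Rac2 in the injured knockouts against the injured controls and in the interaction, and Nox4, Cybb and Cyba in PT-KO+I/R against PT-KO, were called by edgeR or DESeq2 under every alternative run. Leaving out 1 library gave 0 to 4 subunit genes and 379 to 4061 genes called in Ctrl+I/R against Ctrl, 3 to 5 and 4918 to 7509 in the injured knockouts against the injured controls, 0 to 1 and 0 to 1930 in PT-KO against Ctrl, and 2 to 4 and 3622 to 5509 in the interaction. In Ctrl+I/R against Ctrl, 4938 genes were called in 1 fit to all libraries, 2 subunit genes with an Xist covariate, and 1 subunit gene and 1219 genes without the Xist libraries; the interaction then had 3233 and 2539 genes. In PT-KO against Ctrl, 1 gene was called with total counts, 444 with DESeq2 and 388 with no filter. With the longest transcript as length, 3 of 7 subunits kept their place in the order.

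The replicate numbers did not pair the samples: 12 pairs of same-numbered libraries had residual correlations of -0.176 to 0.165, and 3 of 10 libraries correlated best with their own number. With a replicate block, 2 subunit genes and 1683 genes were called in the injured knockouts against the injured controls (Cybb and Rac2; Nox4 at -1.37, edgeR adjusted p = 0.0583, Ncf1 and Noxo1 did not pass), 1 and 1378 in PT-KO against Ctrl (Nox4, -0.83), and 2 and 3215 in the interaction (Cybb and Rac2), and Ncf4 did not pass in Ctrl+I/R against Ctrl (0.055).

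Changes of sign were seen for values that were not called. Leaving out 1 library gave -0.153 to 0.0733 for Cyba in the injured knockouts against the injured controls (0.0848 with the replicate block), -0.482 to 0.0312 for Noxo1 in Ctrl+I/R against Ctrl, -0.641 to 0.0369 for Ncf4 in the interaction, and -0.324 to 0.0481 for Rac2 and -0.0340 to 0.326 for Gfer in PT-KO against Ctrl. With the Xist covariate and without the Xist libraries, PT-KO against Ctrl was -0.0735 and -0.0847 for Cyba, 0.111 and 0.0987 for Rac2 and -0.0347 and -0.0452 for Gfer, and the interaction of Cyba was 0.0647 and 0.0577. With total counts Ncf1 in PT-KO against Ctrl was -0.00334. The cause of these changes was not tested.

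Total counts moved the median log2 fold change of all genes to 0.11 in Ctrl+I/R against Ctrl, where 75.4% of calls were higher in place of 58.9%, and to -0.21 in the injured knockouts against the injured controls, where 28% were higher in place of 48%. Counting error alone gave a coefficient of variation of 22.9% for Cybb in PT-KO+I/R and of 14.7 to 29.3% for Ncf4 over the 4 groups.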
